A study of Mus musculus with 4 samples.

Results

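Microglia that carried transcripts of the late cell cycle made up 3397 of 40869 cells, or 8.31%, in brains of mice fed the copper chelator cuprizone. The class was chosen by measured values: a cell belonged to it when at least 3 of 6 genes, Mki67, Top2a, Birc5, Ccnb2, Cenpf and Ube2c, each had 1 or more unique molecular identifiers (UMIs, counts of captured RNA molecules). Cells with 200 to 6000 detected genes and no more than 10% mitochondrial UMIs entered, and those outside the class are called other cells. Single-cell RNA-seq was done on CD45+ CD11b+ cells sorted from 4 mice on a C57BL/6 background, 1 library a mouse. Both PRMT1FL mice carried Prmt1 alleles flanked by loxP sites and no Cre, and both PRMT1Cx3cr1-KO mice carried the same alleles with a tamoxifen-inducible Cre (CreERT) inserted into Cx3cr1, a fractalkine receptor gene of microglia and other myeloid cells. All 4 had tamoxifen and then 5 weeks of 0.2% cuprizone, and no group without cuprizone was compared here. An age of 5 to 6 weeks is given for the start of the diet by the labels and for the tamoxifen by the study's methods. Because only the PRMT1Cx3cr1-KO mice carry the Cre, its insertion and the loss of Prmt1 cannot be told apart. Cre activity in single cells was not measured here. The libraries held 91306165 and 76943248 UMIs for PRMT1FL mouse 1 and 2, and 85874289 and 99559644 for PRMT1Cx3cr1-KO mouse 1 and 2. Sets of 4 values below are in this order.

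Microglia renew by dividing in place, and they multiply when myelin is lost. A dividing cell copies its DNA in S phase with the MCM helicase, PCNA and newly made histones, then in G2 builds up cyclins A and B, which switch on the kinase CDK1. In mitosis condensins pack the chromosomes, kinetochores tie them to the spindle, the anaphase-promoting complex with CDC20 and UBE2C destroys cyclin B, and the contractile ring splits the cell. PRMT1 is the main enzyme that places asymmetric dimethyl groups on arginines of histones and RNA-binding proteins.

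Among the 6 genes of the rule, Mki67 encodes a coat of mitotic chromosomes, Top2a the topoisomerase that untangles DNA, Birc5 the survivin subunit of the chromosomal passenger complex, Ccnb2 a cyclin B, Cenpf a kinetochore protein and Ube2c the ubiquitin-conjugating enzyme of the anaphase-promoting complex. Many genes of this late wave share a promoter in which a cell cycle genes homology region, TTTGAA, lies downstream of CCAAT boxes. The promoters of the 3 rule genes with the highest ratio of mitotic to other cells are given to show genes with and without these letters (RefSeq, build GRCm38.p6, from 250 bases before to 50 after the start). They lie at chr1:189688037-189688336, minus strand, for Cenpf, at chr11:117848987-117849286, plus strand, for Birc5, and at chr7:135716330-135716629, minus strand, for Mki67. Each is written 5′ to 3′ on the gene's own strand, and capitals mark every TTTGAA or CCAAT on either strand.
Cenpf: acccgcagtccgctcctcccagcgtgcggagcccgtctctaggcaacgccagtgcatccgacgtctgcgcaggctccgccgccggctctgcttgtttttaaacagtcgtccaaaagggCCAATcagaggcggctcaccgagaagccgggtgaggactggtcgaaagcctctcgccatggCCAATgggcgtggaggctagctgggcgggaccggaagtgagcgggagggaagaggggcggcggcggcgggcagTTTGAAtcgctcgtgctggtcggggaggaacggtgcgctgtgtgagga
Birc5: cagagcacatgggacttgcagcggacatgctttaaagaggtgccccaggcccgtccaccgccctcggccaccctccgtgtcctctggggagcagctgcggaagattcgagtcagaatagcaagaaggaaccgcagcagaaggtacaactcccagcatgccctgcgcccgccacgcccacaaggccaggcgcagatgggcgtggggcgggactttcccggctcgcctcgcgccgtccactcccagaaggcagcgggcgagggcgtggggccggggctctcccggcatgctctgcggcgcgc
Mki67: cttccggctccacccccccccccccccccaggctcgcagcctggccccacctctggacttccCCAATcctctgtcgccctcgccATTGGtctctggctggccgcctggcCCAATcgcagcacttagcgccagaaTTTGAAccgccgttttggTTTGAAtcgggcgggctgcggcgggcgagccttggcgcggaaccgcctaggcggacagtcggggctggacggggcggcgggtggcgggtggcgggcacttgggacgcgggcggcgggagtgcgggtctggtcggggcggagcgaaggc

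The Cenpf window held 2 CCAAT boxes and 1 TTTGAA next to the start site, the Mki67 window 3 CCAAT boxes and 2 TTTGAA, and the Birc5 window neither. Of the 6 rule genes, 5 had both motifs. Over all 27025 genes with such a window, 18.1% had a TTTGAA, 37.9% a CCAAT and 7.12% both (both strands were searched, and neighbouring matches may share end bases). Among 190 windows matched to 244 other genes that were at least 2-fold higher in mitotic than in other cells, these shares were 43.2%, 63.7% and 32.1%. By role, TTTGAA was in 13 of 18 windows of spindle genes and in 9 of 18 of kinetochore genes, against 5 of 36 of DNA replication genes. CCAAT was in 12 and 14 of the spindle and kinetochore windows and in 24 of the replication windows. These matches describe letters in a fixed window, not bound sites.

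Nearly all members carried microglial markers. At least 3 of 8 microglial markers (among them P2ry12, Tmem119, Cx3cr1, Csf1r, Sall1, Siglech and Fcrls) were detected in 98.9%, 98.2%, 99.4% and 99.9% of members, against 96.0%, 96.2%, 97.7% and 98.1% of other cells. The sample labels call the source quiescent microglia, whereas these cells carried transcripts of division. Members with at least 3 markers of another cell type were few. Neutrophil markers (S100a8, S100a9, Camp, Ngp and others) marked 1, 3, 0 and 1 members, monocyte markers 1, 4, 0 and 1, neural markers 1, 1, 0 and 0, and border macrophage markers 7, 5, 11 and 39. Endothelial markers marked 3, 6, 4 and 3 members, astrocyte markers 3, 0, 0 and 0, and oligodendrocyte lineage markers 2, 0, 0 and 1. The erythroid and lymphocyte lists marked no member. Few as they were, the neutrophil-marked cells set the level of their genes. S100a8 in summed members was 331, 1552, 0.784 and 209 CPM (a gene's UMIs scaled to the same total in every sum), and 1 cell of PRMT1Cx3cr1-KO mouse 2 held 4042 of that sum's 4063 UMIs.

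Members were deeper than other cells. Their median was 11236, 12900, 11284 and 11629 UMIs, against 5872.5, 6660, 5913 and 6436.5 in other cells. A doublet score marked 22.8%, 11.8%, 18.0% and 18.4% of members and 8.33%, 6.24%, 7.40% and 7.24% of other cells, with the number marked set by library size. Between 31 and 46 cell barcodes were shared by each pair of libraries. The part of doublets and of depth in who met the rule was not tested beyond the alternatives given below.

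The more rule genes a cell carried, the more it carried of the rest of the mitotic programme. In cells with none of the 6, the summed level of 80 other mitotic genes (kinases and cyclins, passenger and anaphase, kinetochore, spindle and cytokinesis lists) was 297, 282, 316 and 329 CPM. Just outside the rule, in cells with 2 rule genes, it was 1114, 855, 1009 and 996 CPM, and just inside, in cells with 3, it was 1786, 1637, 1631 and 1585 CPM. In cells with all 6 it reached 6479, 6552, 6575 and 6388 CPM, a spread between mice that was small beside the steps between classes. Median depth also grew over these steps, from 5663.5, 6441.0, 5523.0 and 5931.5 UMIs with no rule gene to 14888.5, 20386.0, 14559.0 and 14791.5 with all 6. The 45 genes of origin licensing and replication behaved differently. They stood at 423, 403, 448 and 503 CPM with no rule gene and at 1197, 1252, 1092 and 1216 CPM with 2, and at 1646, 1865, 1609 and 1420 CPM with 6, so that most of their difference lay below the rule's limit. P2ry12, a purinergic receptor of resting microglia, was 409, 467, 580 and 652 CPM with no rule gene and 337, 370, 415 and 410 CPM with all 6.

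**Figure D1:**
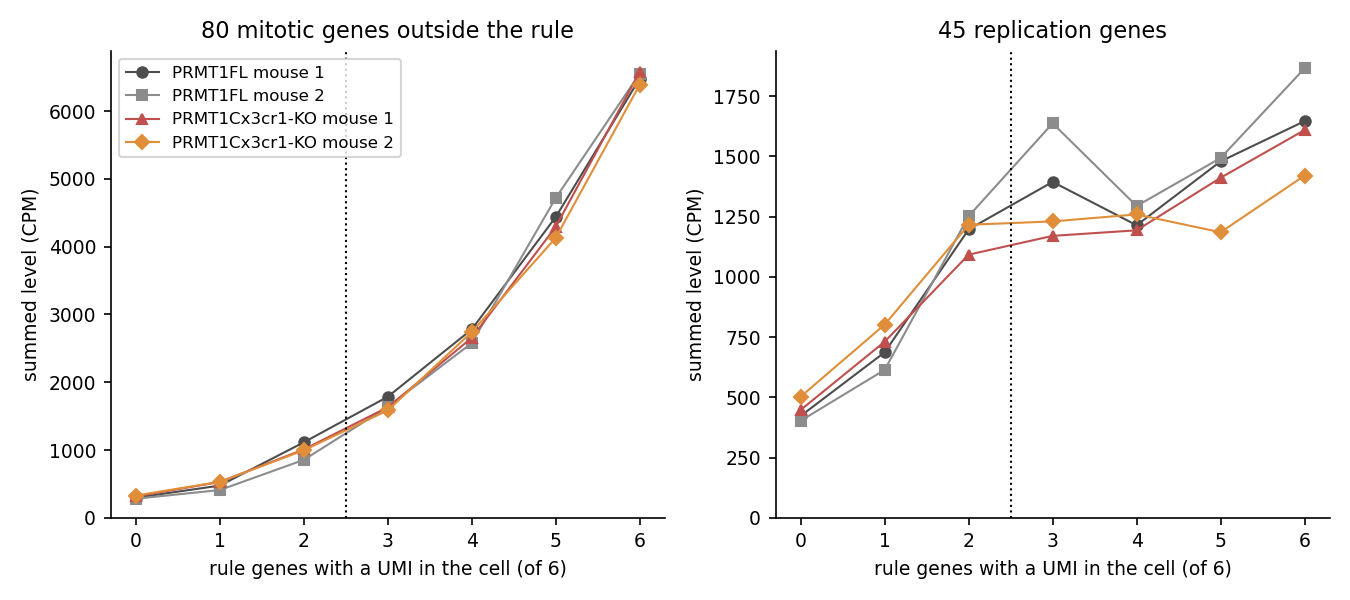
Summed level (CPM) of 80 mitotic genes outside the rule (left) and of 45 replication genes (right) against the number of rule genes with a UMI in a cell, 1 line per mouse; the dotted line marks the rule. The mitotic sum goes from 282 to 329 CPM in cells with no rule gene to 6388 to 6575 CPM in cells with all 6, and the replication sum goes from 403 to 503 CPM with none to 1092 to 1252 CPM with 2 and 1420 to 1865 CPM with 6.

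To compare single cells at equal depth, each cell was thinned to 5000 UMIs, which left out 104, 50, 114 and 172 members and 4547, 2756, 3991 and 3479 other cells that were shallower. Ccnb1, the partner of CDK1 at entry into mitosis, was then detected in 26.2%, 27.9%, 25.2% and 27.6% of members and in 0.465%, 0.221%, 0.508% and 0.636% of other cells. Plk1, a kinase of spindle assembly, was detected in 20.6%, 22.3%, 19.2% and 17.5% of members and Cdc20 in 27.7%, 28.4%, 27.5% and 27%. Hist1h2ap, one of many near-identical histone genes switched on while DNA is copied, whose UMIs may be split with its copies, was detected in 53.5%, 56.0%, 47.6% and 44.1% of members and in 18.1%, 17.9%, 11.8% and 13.5% of other cells. The class therefore held cells with S phase transcripts beside those of G2 and mitosis. A second rule with 6 different mitotic genes found 88.2%, 92.0%, 91.5% and 90.5% of its own cells within the class, and 59.6%, 62.6%, 59.1% and 59.3% of the class met it. Cells with markers of another type were counted for comparison, and whether any of them divide was not tested. Of 107, 74, 14 and 10 cells with at least 3 astrocyte and fewer than 3 microglial markers, 2, 0, 0 and 0 met the rule. Their median depth was lower, at 3018, 3029.5, 1380.5 and 1864.5 UMIs. Of cells with at least 3 neutrophil and fewer than 3 microglial markers, 1 of 19 and 2 of 34 met the rule in the PRMT1FL mice. Such cells were few there, and the other mice held 0 of them. A count of 0 among 74, 14 and 10 astrocyte-marked cells allows a share of up to 4.05%, 21.4% and 30%, in counting error alone.

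Mitotic and other cells of the same mouse were compared as summed CPM, as a description with no test, since the rule chose the cells on their own transcripts. Of 7658 genes with at least 10 CPM in either class, 250 (3.26%) were at least 2-fold higher in members in all 4 mice and 11 (0.144%) at least 2-fold lower, after 2 CPM were added to every value. The rule genes themselves had mean log2 ratios of 4.66 (Ube2c) to 5.37 (Cenpf). Mki67 was 242, 254, 205 and 243 CPM in members and 3.20, 2.81, 5.48 and 7.17 CPM in other cells. Ube2c was 274, 291, 245 and 256 CPM in members and 7.26, 5.83, 10.1 and 12.2 CPM in others.

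Kinases and cyclins of mitosis followed, with 17 of 17 genes that entered at least 2-fold higher in every mouse. Cdk1 was 116, 140, 116 and 110 CPM in members and 15.5, 15.1, 17.0 and 18.2 CPM in others. Ccnb1 was 72.5, 68.5, 63.7 and 68.8 CPM in members and 1.05, 0.802, 1.38 and 1.81 CPM in others. Cks2, a CDK-binding subunit, had the highest mean level of this list, at 134, 135, 132 and 136 CPM, though Cdk1 was higher in PRMT1FL mouse 2. In the chromosomal passenger and anaphase list 9 of 11 were at least 2-fold higher, among them Cdc20 (mean log2 ratio 4.48), Pttg1, the securin that holds back separase (4.01), and Aurkb, the passenger kinase (3.21). Fzr1, the CDC20 relative that acts in G1, had a ratio of 0.78.

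Kinetochore and centromere genes were at least 2-fold higher in 19 of 20 cases, with Cenpe, a plus-end motor, at 4.19 and Cenpa, the centromeric histone, at 3.76. Zwint, a kinetochore gene also expressed outside division, had a ratio of 0.64. All 18 spindle genes that entered passed the same mark, led by Hmmr (4.98), Nusap1 and Tpx2 (4.49), and so did all 9 of cytokinesis, led by Prc1 (4.70), the bundler of the central spindle. Among 18 condensin and chromatin genes, also all higher, H2afz had the highest level, at 1526, 1600, 1439 and 1604 CPM, and Ncapg, a condensin subunit, had the largest ratio (3.27). Stmn1, which destabilises microtubules, was 882, 917, 725 and 735 CPM in members and 75.2, 73.0, 94.9 and 130 CPM in others.

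Outside the lists, genes were ranked at 20 CPM or more by the ratio of the mouse nearest to 0, and the highest included Cdca3, Pimreg, Lockd, Pclaf, Knstrn, Knl1, Sgo2a, Shcbp1, Esco2 and Sgo1. Pclaf, a PCNA-binding factor, was 157, 206, 153 and 151 CPM in members and 5.72, 4.24, 8.82 and 12.1 CPM in others. Sgo1 and Sgo2a, the shugoshins that guard centromeric cohesin, had mean log2 ratios of 3.25 and 3.47. The chromosomal passenger and anaphase list names them by the older symbols Sgol1 and Sgol2a, so they were not matched or counted there. Neil3, a repair glycosylase gene, had 3.31.

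For DNA replication genes the ratios were smaller. All 37 that entered were higher in members in every mouse, yet 16 reached 2-fold in all 4, and the median log2 ratio was 1.38. Rrm2, which makes deoxynucleotides, was 79.3, 92.3, 74.5 and 63.4 CPM in members and 2.49, 2.19, 4.41 and 6.07 CPM in others. Pcna, the sliding clamp, was 130, 145, 117 and 110 CPM in members and 54.0, 53.0, 57.3 and 61.7 CPM in others. Of the factors that switch on the late genes, Foxm1 had a ratio of 2.93, whereas Lin54, a DNA-binding MuvB subunit, had 0.63. G1 cyclins Ccnd1 and Ccnd3 had ratios of -0.10 and 0.35. Cdkn2c, an inhibitor of CDK4 and CDK6, was 69.6, 67.9, 59.0 and 51.9 CPM in members and 7.57, 7.90, 10.2 and 9 CPM in others, and the anti-proliferative Btg2 was lower in members (ratio -0.76). Of 10 replication-dependent histone genes 6 were at least 2-fold higher in every mouse, and of 9 tubulin and stathmin genes 5.

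**Figure D2:**
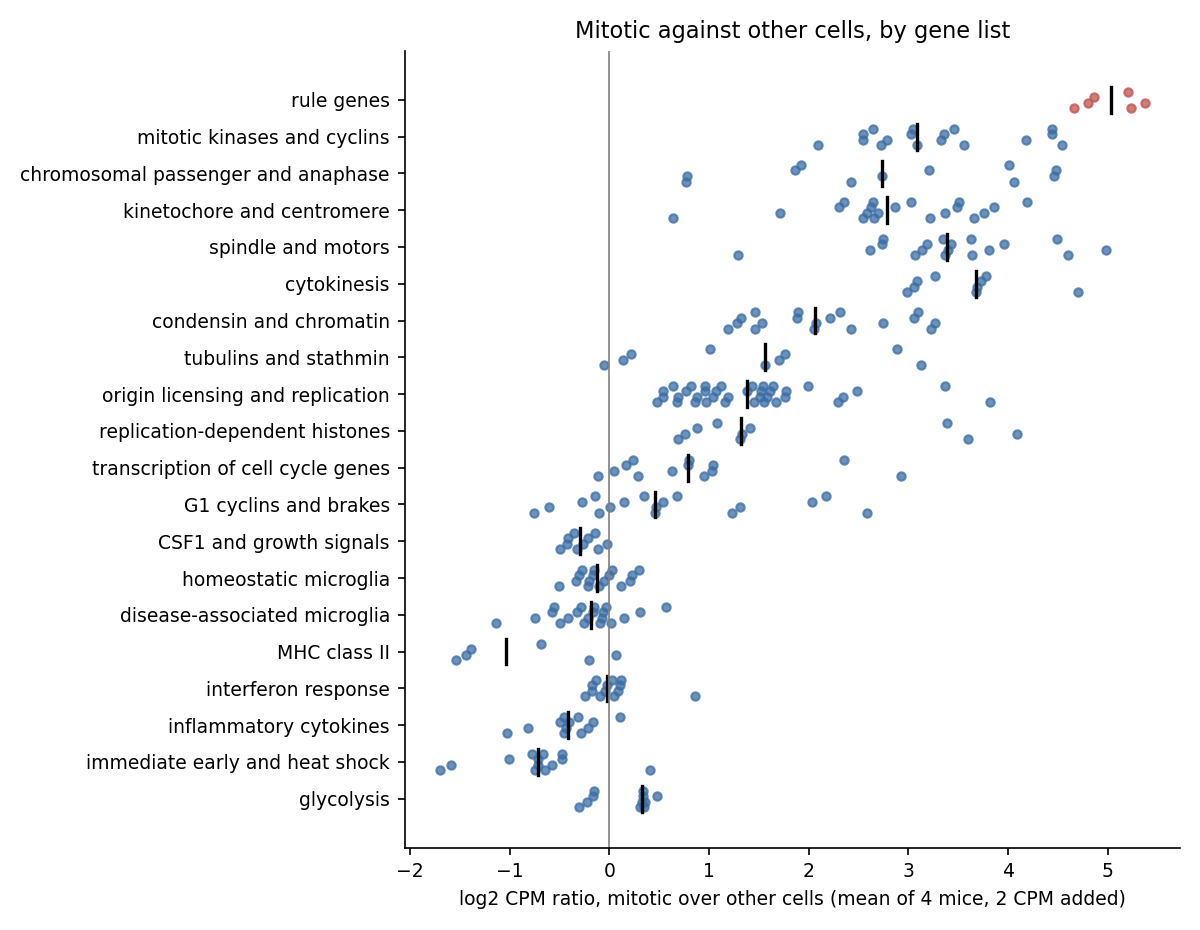
Mean log2 ratio of CPM in mitotic over other cells of the same mouse (4 mice, 2 CPM added), 1 point per gene and 1 row per list, with the median as a black bar and the rule genes in red. Lists of mitosis lie furthest to the right, replication genes centre on 1.38, and MHC class II genes centre on -1.03.

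Resting microglial genes differed little between members and other cells, with a median log2 ratio of -0.12 over 16 genes, 4 higher and 10 lower in all 4 mice. Tmem119, a surface marker of microglia, was 380, 460, 472 and 458 CPM in members and 319, 369, 396 and 425 CPM in others. Reactive-state genes of disease-associated microglia were lower in all 4 mice for 15 of 20, such as Spp1, osteopontin (ratio -0.57), Apoe (-0.55) and Itgax, the CD11c integrin (-1.14). Lpl, a lipase of this state, had -0.03. Of 6 MHC class II genes, which serve antigen presentation to T cells, 5 were lower in all 4 mice and 1, H2-DMa, was higher (ratio 0.07). H2-Aa was 64.5, 70.5, 23.0 and 15.5 CPM in members and 190, 245, 62.1 and 47.9 CPM in others. Immediate early and heat shock genes were lower in 12 of 13 cases, and of 11 glycolysis genes 7 were higher in every mouse, such as Gapdh (0.48) and Ldha (0.36), and 4 lower, such as Hk2 (-0.30). Among genes outside the lists ranked in the same way, the lowest included, with their mean ratios, Pla2g7 (-1.63), Ptafr, the platelet-activating factor receptor (-1.11), Clec4a3 (-1.09), Tns1 (-1.09), Cd300a (-1.02), Cd22, an inhibitory lectin (-0.97), and Malat1, a nuclear long RNA (-0.95). Malat1 was 8051, 7917, 7975 and 7404 CPM in members and 15924, 17250, 14147 and 13476 CPM in others. Astrocyte genes were also lower in members, at a summed 45.8, 49.9, 36.1 and 33.7 CPM against 142, 125, 72.3 and 52.0 CPM, with Slc1a3 the most abundant. Against other cells matched to the members in depth, 235 genes were at least 2-fold higher and 0 at least 2-fold lower, so that none of the 11 lower genes (among them Atp8a2, Cd74, H2-Aa, H2-Eb1, Hspa1a, Hspa1b, Pla2g7, Ptn, Sparcl1 and Vtn) kept that mark in all 4 mice.

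The question the genotypes pose is what loss of PRMT1 in microglia does under demyelination, here in the dividing fraction. The class took 5.59% of passing cells in PRMT1FL mouse 1 (639 of 11427; exact 95% binomial interval 5.18 to 6.03), 5.40% in PRMT1FL mouse 2 (441 of 8170; 4.92 to 5.91), 8.40% in PRMT1Cx3cr1-KO mouse 1 (871 of 10370; 7.87 to 8.95) and 13.3% in PRMT1Cx3cr1-KO mouse 2 (1446 of 10902; 12.6 to 13.9). The genotypes did not overlap, and mouse 2 stood well above mouse 1 within PRMT1Cx3cr1-KO. The means were 5.49% ± 0.137 and 10.8% ± 3.44 (SD, n = 2 each), a 1.97-fold difference. An exact two-sided permutation test gave p = 0.33, the smallest that 2 mice against 2 can give, so that this test could not pass 0.05. The log2 ratio was 0.98, and it was 0.61 without PRMT1Cx3cr1-KO mouse 2. Intervals cover counting error alone.

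Both PRMT1Cx3cr1-KO mice had the larger shares at each number of rule genes from 1 to 6. Cells with exactly 6 rule genes were 1.38%, 1.48%, 1.88% and 3.36% of passing cells, and those with exactly 2, just outside, were 2.24%, 2.33%, 3.75% and 5.41%. With 6 different mitotic genes in place of the rule genes the shares were 3.78%, 3.67%, 5.43% and 8.70%. At 5000 UMIs a cell they were 5.48%, 4.77%, 8.12% and 11.2%, and without marked doublets 4.75%, 5.09%, 7.51% and 11.9%. In every definition tried both PRMT1Cx3cr1-KO mice lay above both PRMT1FL mice.

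**Figure D3:**
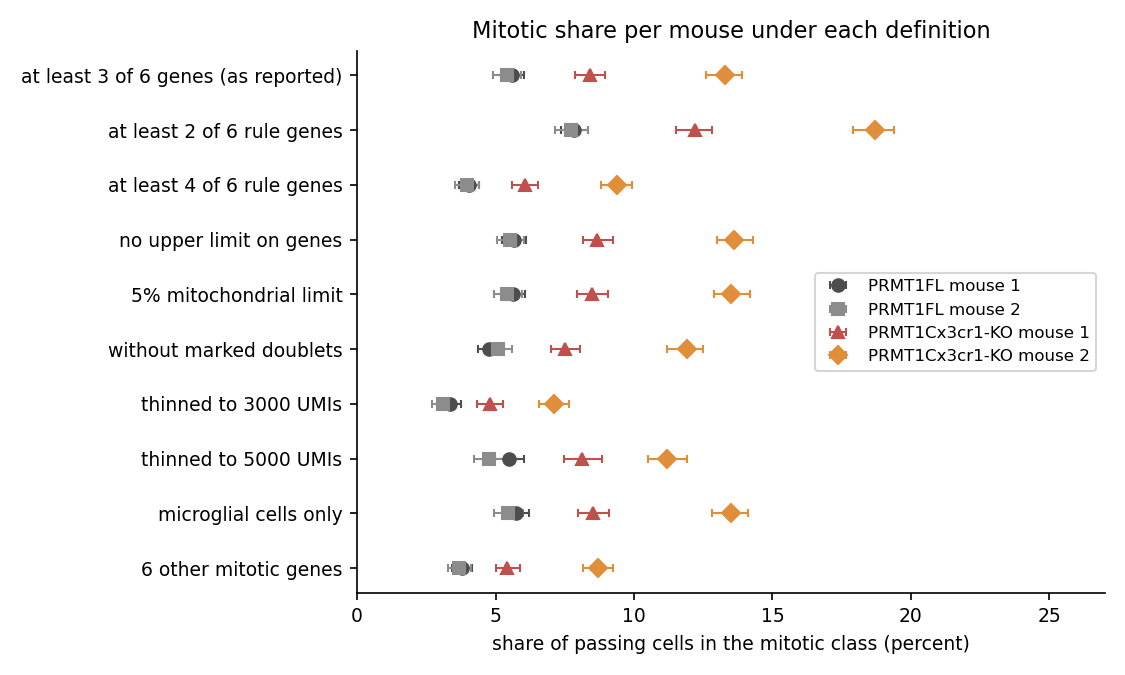
Share of passing cells in the mitotic class (percent) for each of 4 mice under each definition tried, with exact 95% binomial intervals as bars. In all rows both PRMT1Cx3cr1-KO mice lie to the right of both PRMT1FL mice, at 8.40% and 13.3% against 5.59% and 5.40% in the top row.

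Prmt1 itself, at chr7:44975989-44986568 on the minus strand (mm10), was 117, 109, 91.9 and 91.1 CPM in members. The genotypes did not overlap, but the difference did not pass the test (log2 fold change -0.34 ± 0.08 SE, adjusted p = 0.151, edgeR). It passed in 1 of 13 alternatives, without PRMT1Cx3cr1-KO mouse 1 (-0.36, adjusted p = 0.0466). In other cells it was 88.5, 81.4, 66.8 and 65.3 CPM, which did pass (-0.40 ± 0.07, adjusted p = 0.029), and a difference between these changes did not pass (0.09 ± 0.06, adjusted p = 0.661). In each mouse the members were higher than the other cells, by a mean log2 ratio of 0.43. UMIs were summed per gene, so transcripts of the recombined and intact alleles are not separated. At 5000 UMIs a cell, Prmt1 was detected in 42.8%, 42.5%, 34.9% and 34.9% of members.

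Between genotypes, 60 of 11319 genes passed an adjusted p of 0.05 in summed members (edgeR quasi-likelihood test, Benjamini-Hochberg), 29 (0.256%) higher and 31 (0.274%) lower in PRMT1Cx3cr1-KO. Genes that rose included 3 inflammatory cytokines, and genes that fell included 4 of MHC class II. Of 143 genes in 7 cell cycle lists, 1 passed, and Ccnd2 passed in a separate list of G1 cyclins and brakes. Of the 60, 44 also passed in other cells, all in the same direction, where 900 of 14483 genes passed. The calls leaned on having both PRMT1FL mice: 11 genes passed without PRMT1FL mouse 1 and 11 without PRMT1FL mouse 2, whereas 550 passed when PRMT1Cx3cr1-KO mouse 1 was left out and 222 when its group's mouse 2 was. None of those of the 60 that could be tested in these fits changed direction. Of the 24 genes with the largest changes among those called at 10 CPM or more, 12 a direction, 21 lost their call without PRMT1FL mouse 1 and 22 without PRMT1FL mouse 2, and 2 of the 24, Ccl2 and H2-Eb1, kept it in all 13 alternatives.

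Of 12 genes in the list of inflammatory cytokines and their response genes, 5 rose, the cytokines Tnf, Ccl2 and Cxcl2 and the response genes Nfkbia and Tnfaip2, and none fell, at a median of 0.35 on the log2 scale against -0.00 over all genes tested. Ccl2, a chemokine gene at chr11:82035571-82037453 whose product draws monocytes, was 45.9, 43.7, 96.4 and 101 CPM in members. The genotypes were far apart and the mice within each nearly equal (1.10 ± 0.08, adjusted p = 0.00271). Tnf was 181, 199, 393 and 326 CPM (0.88 ± 0.11, adjusted p = 0.0147), and Tnfaip2, a TNF-induced gene, was 33.3, 26.4, 71.7 and 69.9 CPM (1.21). Cxcl2, a neutrophil chemokine, was 219, 198, 354 and 435 CPM, and Nfkbia, which restrains NF-kB, was 835, 869, 1320 and 1208 CPM. Ccl4, the most abundant of the list at 2047, 1829, 2647 and 2239 CPM, did not pass, nor did Il1b at 377, 320, 464 and 231 CPM. Per the study, cells were isolated without a transcription inhibitor, and Ccl3, Ccl4, Jun and Hspa1a mark induction by enzymatic isolation. Its authors found no evidence that these genes drove a cluster. The part of isolation in the levels of cytokine, immediate early and heat shock genes was not tested here.

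Other genes that rose had other roles. Pla2g7, a lipoprotein-associated phospholipase, was 3.13, 2.41, 12.2 and 30.3 CPM (2.91 ± 0.44, adjusted p = 0.0339), and PRMT1Cx3cr1-KO mouse 2 was the higher of its pair. Over 13 alternatives its change was 2.10 to 3.39, and its call was lost in 5. Pdlim4, an actin-associated gene, was 17.3, 16.3, 36.6 and 69.9 CPM (1.63). Igfbp5, which binds insulin-like growth factors, was 5.63, 4.82, 12.8 and 18.8 CPM (1.56). Wfdc17 was 48.5, 47.3, 97.2 and 173 CPM (1.45), and Blvrb, biliverdin reductase B, was 40.9, 45.6, 73.5 and 108 CPM (1.03). Gdf15, a stress-induced cytokine, was 14.4, 13.1, 23.3 and 32.0 CPM (0.97, adjusted p = 0.0448). Camk2n1, Ehd1 and Tcim rose by 1.08, 1.07 and 0.93 on the log2 scale.

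Among the 6 MHC class II genes tested, 4 fell and none rose. H2-Eb1, a beta chain gene at chr17:34305867-34316674, was 46.8, 44.4, 13.9 and 12.5 CPM (-1.83 ± 0.11, adjusted p = 8.7e-04). H2-Aa, an alpha chain, was 64.5, 70.5, 23.0 and 15.5 CPM (-1.86), H2-Ab1 101, 95.5, 60.2 and 54.0 CPM (-0.82), and Cd74, the invariant chain, 309, 321, 159 and 89.3 CPM (-1.38). In members with at least 3 microglial markers and fewer than 3 of any other cell type, Cd74 had a nearly equal change of -1.37 that did not pass (adjusted p = 0.082). H2-DMa, which loads peptides, was level at 300, 309, 289 and 300 CPM, and H2-DMb1 had -0.23. UMIs of H2-Eb1 sat in 44, 41, 38 and 51 members, so that few cells carried most of this gene.

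Other genes that fell included genes of the reactive state and of the driver locus. Itgax was 61.3, 55.1, 29.1 and 15.8 CPM (-1.43), Cst7, cystatin F, 1983, 1905, 1262 and 1014 CPM (-0.81), and Cox6a2, a cytochrome c oxidase subunit gene near Itgax on chromosome 7, 455, 571, 234 and 126 CPM (-1.55). Cx3cr1, the locus into which the Cre was inserted, was 1296, 1293, 785 and 808 CPM (-0.74 ± 0.07, adjusted p = 0.0108). Of the 16 genes of resting microglia it was the only one to pass with edgeR, and 2 passed with DESeq2. Pcp4, Baiap2l2 and the predicted gene Gm43305 fell by 0.67, 0.55 and 0.79 on the log2 scale. H2afx, the histone variant phosphorylated at DNA breaks, was 177, 196, 134 and 129 CPM (-0.54 ± 0.09, adjusted p = 0.0413).

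**Figure D4:**
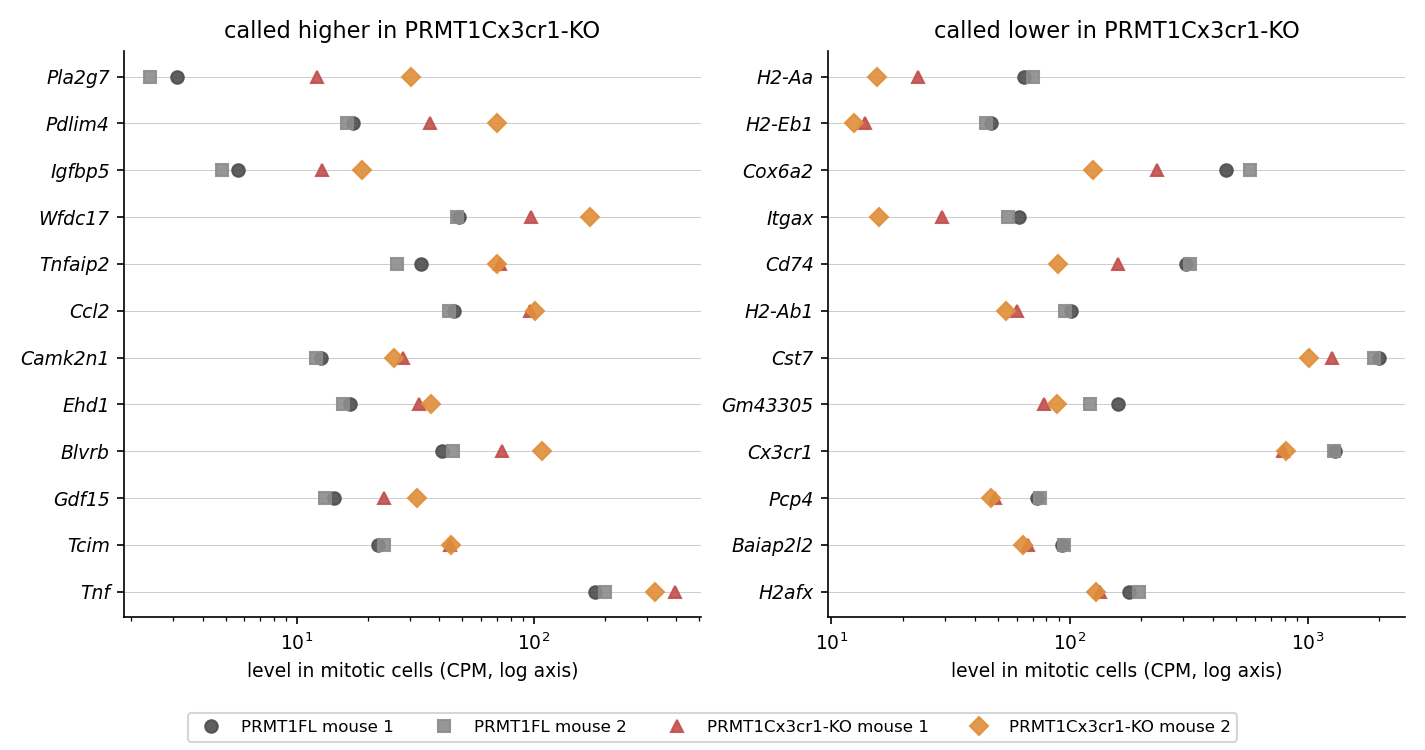
Level in mitotic cells (CPM, log axis) of the 12 genes with the largest rise (left) and the 12 with the largest fall (right) among those called between genotypes with at least 10 CPM, 1 symbol per mouse. The genotypes do not overlap for any gene shown, which the choice of genes requires.

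A group of lower calls rested on single cells. For 11 of the 31 genes that fell (Tubb3, Stmn2, Insm1, Auts2, Meis2, Nfib, Nedd4, Gpm6b, Map1b, H1fx and Pfn2), 1 cell held at least 25% of all UMIs over members of the 4 mice. Stmn2, a neuronal stathmin, had 18, 27, 0 and 0 UMIs, and all 27 of PRMT1FL mouse 2 came from 1 cell. That cell had 6 rule genes, 3 neural markers and 0 of the 8 microglial markers. A cell of PRMT1FL mouse 1 with 10 Stmn2 and 12 Tubb3 UMIs had 5 rule genes, 4 neural markers and 7 of the 8 microglial markers, and it was not marked as a doublet. Ccnd2, cyclin D2, had 196, 42, 17 and 7 UMIs in members, of which 1 cell held 58 and another 37. When cells with fewer than 3 microglial markers or with at least 3 markers of another cell type were left out, 618, 419, 851 and 1401 members stayed and 59 genes passed, 37 higher and 22 lower, and of these 11 genes 9 had too few counts to be tested while Pfn2 and H1fx did not pass (adjusted p = 0.515 and 0.228). Nor did Ccnd2 (-1.05, adjusted p = 0.636). Of the 20 other genes that fell, 3 also sat mostly in few cells, since 5 cells held 81.3% of the UMIs of Ccnd2, 79.5% of Elavl3 and 78% of Nnat. Elavl3 and Nnat had too few counts to be tested in that narrower set of cells.

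The machinery of division, taken as 7 cell cycle lists without the G1 cyclins, gave 1 call between genotypes, though its values leaned one way. Of 143 genes in 7 cell cycle lists outside the rule, 137 were lower in PRMT1Cx3cr1-KO by their fitted value, with a median of -0.21 on the log2 scale, and 1 passed, H2afx. Both PRMT1Cx3cr1-KO mice lay below both PRMT1FL mice in 79 of the 143 (55.2%) and above in 4 (2.80%), beside 17.6% below and 26.3% above over all genes tested. These genes are co-expressed and come from the same 4 sums, so the count is not a test. Replication genes had the lowest median, -0.29, with all 45 below 0. Cdc45, a helicase factor, had -0.80 and Mcm2 -0.52, neither past the threshold. Of the 143, 7 passed without PRMT1Cx3cr1-KO mouse 1, and none without either PRMT1FL mouse. Without PRMT1FL mouse 2 the median of the 143 was -0.14. In thinned cells, where 142 of them were tested, the median was -0.12 and 112 were below 0. The rule genes had -0.09 to -0.26 in members, which the rule itself constrains. Members were chosen on genes of the same programme as the 143, so the rule can bear on the levels of the 143 too. Its part in their lean was not tested.

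Whether the genotype difference was the same in members and in other cells was tested on 8 sums with a term for the mouse. The genotype effect was higher in members for 40 genes (0.353%) and lower for 152 (1.34%). Of the 143 cell cycle genes, 65 were among the lower and 0 among the higher. In other cells the median for these genes was 0.40 on the log2 scale, and 14 of the 143 passed as higher and 0 as lower. Over all genes tested in other cells, 900 of 14483 passed in either direction. Ccna2, cyclin A2, was 86.3, 91.4, 76.5 and 83.4 CPM in members and 1.25, 0.787, 2.14 and 3.11 CPM in others, with fitted changes of -0.19 in members, which did not pass, and 1.31 in others (difference -1.46 ± 0.19, adjusted p = 7.3e-04). Rrm2 (-1.46), Ccne2, a cyclin E (-1.57), Spc24, a kinetochore subunit (-1.39), Ttk, a spindle checkpoint kinase (-1.44), Troap (-1.52), Hmmr (-1.37) and Pimreg (-1.33) went the same way. Ccne2, Rrm2 and Spc24 passed in all 11 alternatives. The rule bears on this contrast, since cells with 1 or 2 rule genes counted as other cells and were more frequent in PRMT1Cx3cr1-KO. With other cells limited to those with no rule gene, 24 of the 143 passed as lower, with a median of -0.44. Both classes were then sorted on the rule genes, so this fit cannot separate the contrast from the rule. How far the rule set the contrast was not tested. With depth-matched other cells 13 of the 143 passed, and 19 when mouse 2 of PRMT1Cx3cr1-KO was left out.

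Among the 40 genes with the higher genotype effect in members were 5 of 13 immediate early and heat shock genes (2 with depth-matched other cells, and 2 without PRMT1Cx3cr1-KO mouse 2), 2 MHC class II genes (1 in either case) and 5 neutrophil genes. Hspa1a, an inducible heat shock protein, was 12.9, 14.0, 17.8 and 25.5 CPM in members and 55.0, 76.6, 47.1 and 64.2 CPM in others (0.94 ± 0.12, adjusted p = 7.3e-04). Egr1, an immediate early transcription factor, was 217, 204, 390 and 234 CPM in members and 430, 378, 572 and 311 CPM in others (0.48). Cd74 and H2-Ab1 fell in both classes, and by less in members (differences 0.60 and 0.53). Spp1 was 1266, 1080, 1153 and 1558 CPM in members and 2038, 1853, 1646 and 1933 CPM in others (0.35). The other genes of this kind were Kcnq1ot1 (0.46), which passed in all 11 alternatives, Hist1h1c, a linker histone (0.38), which lost its call in 4, and Atp13a2 (0.35), which lost it in 9. Without PRMT1FL mouse 2 Hist1h1c had a difference of 0.22. A difference above 0 need not be a rise in members. In members and in others, Kcnq1ot1 had changes of 0.01 and -0.43, Atp13a2 0.00 and -0.31, and Hist1h1c -0.41 and -0.77. None of these passed in members. Hspa1a (0.66 and -0.28), Egr1 (0.53 and 0.10) and Spp1 (0.17 and -0.16) passed in neither class. The 5 neutrophil genes followed the few neutrophil-marked cells, and none of them passed when mouse 2 of PRMT1Cx3cr1-KO was left out. In the opposite direction, Gdf15 rose in both classes and by less in members (difference -1.07 ± 0.18, adjusted p = 0.00386).

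**Figure D5:**
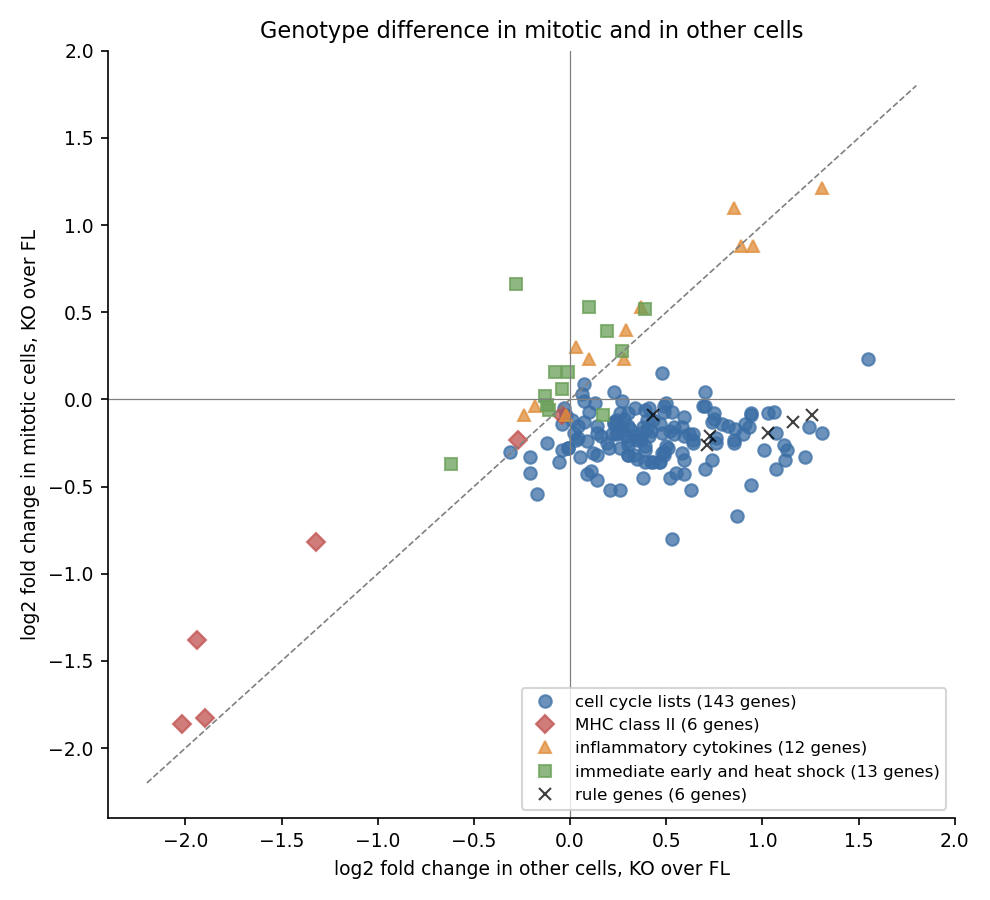
Log2 fold change between genotypes (KO for PRMT1Cx3cr1-KO, FL for PRMT1FL) in other cells (x) and in mitotic cells (y), 1 point per gene of the lists named in the key; the dashed line marks equal change. Most of the 143 cell cycle genes lie right of 0 and just below it, with medians of 0.40 and -0.21, while 4 MHC class II genes lie at lower left, of which Cd74 and H2-Ab1 stand above the line by 0.60 and 0.53.

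The growth-signal, interferon and glycolysis lists held no gene called between genotypes in members with edgeR, and 1 each with DESeq2. An unadjusted p under 0.05 was found for 11.4% of all genes tested (1285 of 11319), for 4 of the 12 growth-signal genes, for 3 of the 13 interferon-response genes and for 8 of the 12 glycolysis genes. Csf1r, the receptor on which microglia depend for survival, was 1347, 1304, 1210 and 1164 CPM, and Igf1, insulin-like growth factor 1, 138, 133, 177 and 254 CPM. All 13 interferon-response genes had a log2 fold change below 0, with a median of -0.30. Over all genes tested, 5706 of 11319 were below 0. The summed level of the 13 was 1842, 1898, 2046 and 1313 CPM, so PRMT1Cx3cr1-KO mouse 1 lay above both PRMT1FL mice. Both PRMT1Cx3cr1-KO mice lay below both PRMT1FL mice for 4 of the 13 genes, beside 17.6% of all genes tested. Ifit3 was 52.8, 49.9, 50.9 and 22.7 CPM, low in PRMT1Cx3cr1-KO mouse 2 alone. Ifi44, an interferon-induced gene outside that list, fell, with 5.38, 4.37, 1.65 and 0.821 CPM (-2.12, adjusted p = 0.045). Of 12 glycolysis genes 11 were below 0. Among 8 arginine methyltransferase genes none passed with either tool, 1 had an unadjusted p under 0.05, and Prmt5, the main enzyme of symmetric dimethylation, was 22.9, 25.6, 25.3 and 26.5 CPM. Cdkn2a, which encodes p16 and p19ARF, was 24.8, 28.5, 36.5 and 41.6 CPM in members and did not pass (0.52, adjusted p = 0.128, edgeR). In other cells it was 6.73, 8.03, 16.9 and 25.7 CPM and passed (1.49, adjusted p = 0.0154, edgeR). The difference between these changes passed too (-0.97, adjusted p = 0.00106, edgeR).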

How the data were processed

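CD45+ CD11b+ cells of 4 mice were profiled by droplet single-cell RNA-seq. Per the labels and the study's methods the authors aligned reads to mm10 and made filtered matrices with Cell Ranger 3.1.0, and the submitters' processing notes also name Seurat 3.2.0 and Scanpy 1.5.2. The deposited values are raw UMI counts per gene and cell. The members and gene lists were chosen with earlier results of these data known.

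Cells were filtered and classed by the stated rule. Counts were summed per mouse over members and over other cells, and tested with edgeR 4.0.16 (filterByExpr, TMM, quasi-likelihood, Benjamini-Hochberg adjusted p under 0.05) in R 4.3.3, with DESeq2 1.42.0 and limma 3.58.1 as alternatives. Cells are not replicates, and n is the mouse (2 a genotype). Shares have exact (Clopper-Pearson) 95% intervals. On simulated counts with 200 changed genes the edgeR genotype test found 99 of 100 genes changed by 1 on the log2 scale, and the test of the difference 85 of 100. The changed genes were drawn from those above 10 CPM, and counts were independent between sums at the fitted dispersion. No mouse effect was shared by the 2 classes, so these counts need not hold for the real data. Doublets were marked by Scrublet score (scanpy 1.11.5) at 0.8% of cells for each 1000 cells in a library, because its own threshold marked almost none. Named genes are the rule genes, Prmt1, up to 12 genes a direction with the largest called change between genotypes and up to 8 for the difference, at 10 CPM or more with groups that do not overlap, up to 5 for each list, and, outside the lists at 20 CPM or more, the 15 genes highest and 10 lowest by the ratio of the mouse nearest to 0. Genes named beyond these were chosen after their values were seen. Coordinates are from GENCODE vM21 (GRCm38, the mm10 build). Clec7a, Aldoa and Ddit3 were not analysed here. Some genes are not reported here.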

Additional observations from a re-analysis of the deposited data

Results flagged for a closer look

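The genotype difference was not the same in mitotic and other cells for 16 named genes (edgeR, class by genotype term, adjusted p under 0.05). It was above that of other cells by 0.94 on the log2 scale for Hspa1a, 0.60 for Cd74, 0.53 for H2-Ab1, 0.48 for Egr1, 0.46 for Kcnq1ot1, 0.38 for Hist1h1c, 0.35 for Atp13a2 and 0.35 for Spp1. It differed by -1.57 for Ccne2, -1.52 for Troap, -1.46 for Ccna2, -1.46 for Rrm2, -1.44 for Ttk, -1.39 for Spc24, -1.37 for Hmmr and -1.33 for Pimreg. Over 11 alternatives Ccne2, Rrm2 and Spc24 kept their call, whereas Troap lost it in 8 (-2.06 to -0.43), Ttk in 6 (-1.63 to -0.48), Pimreg in 5 (-1.81 to -0.36), Hmmr in 4 (-3.04 to -0.46) and Ccna2 in 1 (-2.05 to -0.76). Of the 8 above, Atp13a2 lost its call in 9 (0.26 to 0.42), Hist1h1c in 4 (0.22 to 0.58), H2-Ab1 in 3 (0.25 to 0.73) and Spp1 in 1 (0.24 to 0.47). The rule for the class sorts cells on genes of the same programme as the last 8.

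Cells above 6000 detected genes, left out of the class, also met the rule: 34 of 58 in PRMT1Cx3cr1-KO mouse 1 and 46 of 62 in PRMT1Cx3cr1-KO mouse 2, against 8 of 18 and 12 of 29 in PRMT1FL mouse 1 and 2. With no upper limit the shares were 5.65%, 5.53%, 8.68% and 13.6%.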

How the results depend on the processing

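The log2 ratio of mitotic shares was 0.88 to 1.0 under the 9 other definitions, and 0.61 to 1.27 when each mouse was left out in turn (0.61 without PRMT1Cx3cr1-KO mouse 2). The 60 genes called between genotypes in mitotic cells became 93 with DESeq2, 35 with at least 2 rule genes, 38 with at least 4, 46 without marked doublets (an alternative chosen after seeing the data) and 11 to 550 when each mouse was left out. Replicate numbers in the labels only name mice, and with 2 pairs they cannot be shown to pair them (same-numbered deviations correlated at 0.176); with the number as a replicate block 211 genes were called, among them all 60. The 192 genes with unlike genotype differences became 44 with no filter on low counts, 52 with depth-matched other cells, 111 with other cells that had 0 rule genes (chosen after seeing the data) and 67 to 378 when each mouse was left out. The cause of these changes was not tested. The 250 genes at least 2-fold higher in mitotic cells were 235 to 281 throughout. Of the 60 genes, those that could be tested under each alternative kept their direction, whereas up to 7 of the 192 changed theirs (7 without PRMT1Cx3cr1-KO mouse 2).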
